A study of Mus musculus with 30 samples.

Results

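The G1 cyclins, the kinases they activate and the inhibitor p27 were described by 9 genes of the 12428 in the deposited table, chosen by symbol: the D-type cyclins Ccnd1, Ccnd2 and Ccnd3, the E-type cyclins Ccne1 and Ccne2, the kinases Cdk4, Cdk6 and Cdk2, and Cdkn1b, which encodes p27. All 9 were in the table and all 9 passed the filter on low values, which asked for a mean of 1 CPM or more in some group. The 30 libraries came from naive mouse embryonic stem cells, in 10 groups of 3, and counted tags from the 3' ends of transcripts. GRHL2 is an epithelial transcription factor, and in the GRHL2-ERT fusion an estrogen receptor domain lets tamoxifen bring it into the nucleus. KMT2C and KMT2D are histone methyltransferases that act at enhancers. The study asked how the response to GRHL2 differs when KMT2D is missing as well as KMT2C. The double-KO GRHL2-ERT cells (Kmt2c KO, Kmt2d KO) received tamoxifen or ethanol, the solvent, for 16 h or 8 h. The Kmt2c-KO GRHL2-ERT cells (Kmt2c KO, fl/fl at Kmt2d, which the label spells Kmtd) received the same. In the libraries used here, Kmt2c-KO cells that lack GRHL2-ERT, likewise labelled fl/fl at Kmt2d, had tamoxifen only. All groups therefore lacked Kmt2c, and no group had both genes intact. Cells were of a C57BL/6J x 129 background and grew in serum with LIF and inhibitors of MEK and GSK3. The lines were clones chosen for comparable GRHL2 levels, and the number of clones per line is not given, so the missing Kmt2d and the history of a clone cannot be told apart. The labels number the replicates without naming separate cultures, so p-values measured the spread between these libraries, which may be technical. The sample titles do not say whether the 16 h and 8 h libraries were handled together. Time and batch therefore cannot be told apart in comparisons of 16 h with 8 h.

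Cells enter the division cycle through G1. D-type cyclins are made in response to growth signals and bind CDK4 or CDK6, and these complexes begin to phosphorylate the retinoblastoma protein. Its phosphorylation frees E2F factors, which switch on the E-type cyclins, and cyclin E with CDK2 completes the step into S phase. p27 binds both kinds of complex and blocks cyclin E with CDK2. Mouse embryonic stem cells are known for a short G1 and for cyclin E and CDK2 activity that stays high through the cycle. MEK signalling is a known inducer of Ccnd1, and GSK3 is known to mark cyclin D1 protein for degradation; both kinases were inhibited in all of these cultures. RNA levels say nothing of protein levels, phosphorylation or cell-cycle phase, which were not measured here.

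Depth, worked out from the steps between low values, was 8.85 to 22.1 M reads per library with a median of 16.2, and a floor of 3 reads stood for 0.136 to 0.339 CPM (reads per M reads counted), covering counting error only. Grhl2 tags were at 1.40 to 3.55 CPM without GRHL2-ERT. At 8 h they were at 32.4 to 125 CPM in double-KO and 158 to 210.4 CPM in Kmt2c-KO GRHL2-ERT libraries, and at 16 h at 47.0 to 70.3 CPM and 64.6 to 90.2 CPM in the same lines. Tags of Kmt2c and Kmt2d were found in all groups, and a 3' tag can lie outside the deleted part, so they check nothing. Replicate 2 of double-KO tamoxifen cells and replicate 3 of Kmt2c-KO ethanol cells, both at 8 h, stood apart: the ribosomal precursor Rn45s took 7.37% and 7.40% of their CPM, against 1.85% to 5.39% in the other libraries. The double-KO library also had the lowest depth and the lowest mean correlation with its group (0.938). The Kmt2c-KO library correlated with its group (0.9808) much as the other libraries of that group did (0.9806 and 0.9814). The 12 markers of naive embryonic stem cells, all in the table, summed to 2601 to 5097 CPM over all libraries. In ethanol they summed to 3432 to 3548 CPM in double-KO and 3855 to 3903 CPM in Kmt2c-KO cells at 16 h. At 8 h these sums were 3494 to 3626 CPM and 3248 to 3499 CPM. The table held 6 of 8 primitive endoderm markers (not Sox7 or Sox17), which summed to 20.1 to 49.2 CPM in double-KO libraries and 1.35 to 7.23 CPM in Kmt2c-KO libraries, and 4 of 6 neuroectoderm markers (not Neurog2 or Olig3), which summed to 30.9 to 84.7 CPM and 3.80 to 14.3 CPM in the same lines. It held 5 of 8 trophoblast markers (not Cdx2, Elf5 or Hand1), which summed to 248 to 284 CPM in double-KO and 73.9 to 93.5 CPM in Kmt2c-KO libraries at 16 h, and to 219 to 299.997 CPM and 183 to 300.5 CPM at 8 h. The 3 of 6 mesoderm markers in the table summed to 3.42 to 8.56 CPM in double-KO and 0.300 to 2.38 CPM in Kmt2c-KO libraries at 16 h, and to 3.73 to 8.89 CPM and 3.38 to 8.51 CPM at 8 h, and 4 of 8 fibroblast markers summed to 1.99 to 11.1 CPM over all libraries. Marker sums therefore differed between lines and, within a line, between times. Trophoblast and mesoderm sums were lower at 16 h in Kmt2c-KO cells. In double-KO cells primitive endoderm sums were higher at 16 h, at 35.2 to 37.6 CPM in tamoxifen and 36.5 to 49.2 CPM in ethanol. At 8 h they were 20.1 to 24.6 CPM and 27.1 to 34.5 CPM. Neuroectoderm sums were lower at 16 h in double-KO cells, at 30.9 to 41.7 CPM and 50.2 to 56.4 CPM in the same order. They were 50.6 to 54.8 CPM and 63.3 to 84.7 CPM at 8 h. Both sums had lower means at 16 h in Kmt2c-KO cells. The part of marker sums in the line and time differences below was not tested. Sox1 made up most of the neuroectoderm sum in double-KO cells, at 60.1 CPM in ethanol at 8 h, against 0.803 CPM in Kmt2c-KO cells. In the same groups Nes was at 9.85 and 8.80 CPM, Zic1 at 1.73 and 0 CPM and Pax6 at 0.592 and 1.28 CPM. In bulk samples fewer cells with a transcript and less of it per cell cannot be told apart.

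On mm10 with GENCODE mouse release 21, Ccnd1 lies at chr7:144929931-144939925 (minus strand), Ccnd2 at chr6:127125162-127152193 (minus) and Ccnd3 at chr17:47505051-47599691 (plus). Ccne1 lies at chr7:38097984-38107534 (minus) and Ccne2 at chr4:11191351-11204779 (plus). Cdk4 lies at chr10:127063534-127067920 (plus), Cdk2 at chr10:128697939-128705031 (minus), Cdk6 at chr5:3341485-3531008 (plus) and Cdkn1b at chr6:134920401-134925513 (plus). Genes on the opposite strand overlap the 3' ends of Ccnd1 (LTO1), Ccnd2 (Gm43126), Ccnd3 (Bysl), Ccne2 (Ints8) and Cdk4 (Tspan31). The kit marks strand, and the strand setting of the counting is not given in the sources used here.

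Promoters are shown for a part of the members. Ccnd3 is the member called between tamoxifen and ethanol. Cdk2 and Cdkn1b were called higher at 16 h than at 8 h in 4 of the 5 line and treatment combinations. Cdk4 is shown beside them. Its neighbouring groups in the order of levels all overlapped, and so did those of Ccne2 and Cdk6, so this does not set Cdk4 apart. Each run holds the 250 bases before an annotated start, 5' to 3' on the gene's strand, from RefSeq on GRCm38.p6. Capitals mark matches, on either strand, to the letters of an E2F site (TTTGGCGC, TTTCCCGC, TTTGCCGC or TTTCGCGC), a forkhead (FOXO) site (GTAAACA), a GRHL site (AACCNGGTT) or an E-box (CACGTG).
Ccnd3, first start, chr17:47504801-47505050, plus: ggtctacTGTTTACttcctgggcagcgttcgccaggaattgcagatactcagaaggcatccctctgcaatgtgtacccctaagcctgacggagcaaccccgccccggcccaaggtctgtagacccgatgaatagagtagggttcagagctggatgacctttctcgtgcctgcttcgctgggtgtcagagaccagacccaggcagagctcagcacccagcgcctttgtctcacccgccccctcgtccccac
Ccnd3, second start, chr17:47593217-47593466, plus: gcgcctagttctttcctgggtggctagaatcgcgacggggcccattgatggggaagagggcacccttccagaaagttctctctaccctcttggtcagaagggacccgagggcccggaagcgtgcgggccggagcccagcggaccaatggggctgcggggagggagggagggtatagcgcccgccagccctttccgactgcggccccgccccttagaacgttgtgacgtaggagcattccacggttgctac
Cdk2, chr10:128705052-128705301, minus: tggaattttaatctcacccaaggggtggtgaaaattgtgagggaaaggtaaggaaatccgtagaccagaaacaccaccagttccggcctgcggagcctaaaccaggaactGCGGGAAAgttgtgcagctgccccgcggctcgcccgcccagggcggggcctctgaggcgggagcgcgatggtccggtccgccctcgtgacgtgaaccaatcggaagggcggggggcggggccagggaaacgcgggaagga
Cdkn1b, chr6:134920151-134920400, plus: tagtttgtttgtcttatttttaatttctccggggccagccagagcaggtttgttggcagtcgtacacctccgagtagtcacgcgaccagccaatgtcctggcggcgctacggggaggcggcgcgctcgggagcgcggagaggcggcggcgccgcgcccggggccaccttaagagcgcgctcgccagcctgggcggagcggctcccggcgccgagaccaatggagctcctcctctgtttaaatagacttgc
Cdk4, chr10:127063285-127063534, plus: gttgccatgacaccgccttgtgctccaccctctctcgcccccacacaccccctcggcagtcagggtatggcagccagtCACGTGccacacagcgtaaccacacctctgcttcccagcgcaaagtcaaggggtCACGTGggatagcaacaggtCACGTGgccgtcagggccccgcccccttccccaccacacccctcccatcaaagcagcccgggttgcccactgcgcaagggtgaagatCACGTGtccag
G and C made up 59.6% and 64.8% of the Ccnd3 runs, 63.2% of the Cdk2 run and 64.4% of both the Cdkn1b and the Cdk4 run, against a median of 52.4% over 32817 promoters. The Cdk2 run held 1 E2F match, 140 bases before the start, and 1.86% of all promoters held one. The first Ccnd3 run held 1 FOXO match, 243 bases before the start, and 3.16% of all promoters held one. The Cdk4 run held 4 E-boxes, at 172, 118, 98 and 11 bases before the start, and 6.02% of all promoters held at least 1. The GRHL letters, found in 0.241% of promoters, were in none of the 7 promoters of the 6 members with an entry. The other members with an entry are Ccne1, with 76% G and C, and Cdk6, with 66% and 1 E-box. A match describes the letters and is not a bound site. Ccnd1, Ccnd2 and Ccne2 are named here without a promoter.

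A 3' kit takes tags near the transcript end, so CPM can be set side by side between genes without a correction for length, although how well each gene is tagged was not measured. Averaged over the 30 libraries, Ccnd1 was at 213 CPM, above 94.3% of the genes in the table. Cdk4 was at 168 CPM and Ccnd3 at 125 CPM. Ccne1, Cdkn1b and Ccne2 were at 83.7, 69.3 and 66.8 CPM. Cdk2 was at 36.8 CPM and Ccnd2 at 23.8 CPM. Cdk6 was at 3.66 CPM, above 23.6% of genes, and Cdk4 tags were thus far more abundant than those of the other D-cyclin kinase in these cells. Differences below are log2 fold changes of CPM + 1 with the SE of a limma model over all 30 libraries, the scale on which changes of low genes such as Cdk6 and Ccnd2 are understated. A two-sided test counts as called when its p, adjusted by Benjamini and Hochberg's method over the 12414 genes tested, is under 0.05.

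Double-KO cells differed from Kmt2c-KO cells across much of the table, and the 9 genes shared in that. In ethanol at 16 h, 5 members rose and 0 fell in double-KO against Kmt2c-KO cells, where 50% of all tested genes were called (40% higher, 9.96% lower). In ethanol at 8 h, 4 rose and 2 fell, with 49.4% of genes called (37.6% higher, 11.9% lower). In tamoxifen, a comparison added after the data were seen, 5 rose and 0 fell at 16 h, with 51.3% of genes called (41.2% higher, 10.1% lower), and 4 rose and 1 fell at 8 h, with 44.5% called (30.6% higher, 14% lower). These counts, of 9 members each, were near the share of all genes or somewhat above it. The median of all genes was itself displaced between the lines, by 0.35 at 16 h and 0.31 at 8 h in ethanol and by 0.35 and 0.18 in tamoxifen, so line differences that were called are also given after median-of-ratios scaling, an alternative that sets the typical gene level between libraries. After that scaling, 1 of the 12 naive markers rose and 7 fell between the lines in ethanol at 16 h, and 2 rose and 6 fell at 8 h. Their median log2 fold changes were -0.78 and -0.45, against 0.025 and 0.033 over all genes. The share of all genes that fell after scaling is not given here. By CPM the mean sum of these markers was 3502 CPM in double-KO and 3881 CPM in Kmt2c-KO cells at 16 h. At 8 h it was 3561 and 3366 CPM.

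Ccnd1, which encodes cyclin D1, was higher in the double-KO line with each treatment and at both times. At 16 h Ccnd1 was at 289, 319 and 304 CPM with tamoxifen and 315, 336 and 307 CPM with ethanol in double-KO libraries, against 139.8, 179 and 178 CPM with tamoxifen and 159.8, 183 and 165 CPM with ethanol in Kmt2c-KO GRHL2-ERT libraries. At 8 h Ccnd1 was at 267, 212 and 334 CPM with tamoxifen and 390.4, 328 and 262 CPM with ethanol in double-KO libraries, against 153, 165 and 142 CPM with tamoxifen and 109, 146 and 121 CPM with ethanol in Kmt2c-KO GRHL2-ERT libraries. Without GRHL2-ERT, Ccnd1 was at 141, 150.2 and 144 CPM at 16 h and 162, 139 and 151 CPM at 8 h, both with tamoxifen. At each time the lowest of the 6 double-KO libraries lay above the highest of the 9 Kmt2c-KO libraries, and the double-KO libraries varied more among themselves at 8 h. In ethanol Ccnd1 rose by 0.91 ± 0.14 at 16 h (adjusted p = 4.64e-06) and by 1.37 ± 0.14 at 8 h (adjusted p = 6.54e-09) in double-KO against Kmt2c-KO cells. After median-of-ratios scaling the differences were 0.54 and 1.05, both still called (adjusted p = 0.000483 and 2.77e-08). In tamoxifen it rose by 0.88 ± 0.14 at 16 h and 0.80 ± 0.14 at 8 h (adjusted p = 7.37e-06 and 3.67e-05), or 0.49 and 0.59 after scaling (adjusted p = 0.00125 and 0.00019). At 16 h against 8 h, Ccnd1 rose in ethanol-treated Kmt2c-KO GRHL2-ERT cells, by 0.44 ± 0.14 (adjusted p = 0.0118), and was called in no other line and treatment combination; the call was lost without ethanol replicate 2 at 16 h or replicate 1 at 8 h (adjusted p = 0.0568 and 0.0783). Leaving out the 2 libraries that stood apart, the 8 h line differences were 0.96 in tamoxifen and 1.35 in ethanol, and the change with time was 0.42 (adjusted p = 9.26e-07, 1.66e-09 and 0.0103).

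Ccnd2, which encodes cyclin D2, had the largest line difference of the 9 genes with each treatment and at both times, and was lower at 16 h in each line and treatment combination. At 16 h Ccnd2 was at 22.3, 22.9 and 24.1 CPM with tamoxifen and 24.7, 24.3 and 25.0 CPM with ethanol in double-KO libraries, against 1.58, 2.82 and 3.45 CPM with tamoxifen and 4.37, 5.72 and 4.24 CPM with ethanol in Kmt2c-KO GRHL2-ERT libraries. At 8 h Ccnd2 was at 59.1, 107 and 57.9 CPM with tamoxifen and 71.8, 61.5 and 57.2 CPM with ethanol in double-KO libraries, against 12.0, 9.02 and 11.6 CPM with tamoxifen and 13.6, 15.0 and 13.8 CPM with ethanol in Kmt2c-KO GRHL2-ERT libraries. Without GRHL2-ERT, Ccnd2 was at 4.01, 5.30 and 5.12 CPM at 16 h and 15.5, 13.9 and 14.4 CPM at 8 h, both with tamoxifen. The lowest double-KO library, at 16 h, lay above the highest Kmt2c-KO library, at 8 h. The double-KO library at 107 CPM is replicate 2, which stood apart. In double-KO against Kmt2c-KO cells in ethanol, Ccnd2 rose by 2.16 ± 0.19 at 16 h (adjusted p = 5.00e-10) and by 2.09 ± 0.19 at 8 h (adjusted p = 1.18e-09), or 1.83 and 1.78 after median-of-ratios scaling. In tamoxifen it rose by 2.77 ± 0.19 at 16 h and 2.62 ± 0.19 at 8 h (adjusted p = 3.01e-12 and 1.33e-11), or 2.45 and 2.42 after scaling, and the 8 h difference was 2.33 (adjusted p = 6.68e-12) when the 2 libraries that stood apart were left out. Ccnd2 fell at 16 h against 8 h in all 5 line and treatment combinations, with log2 fold changes of -1.59 ± 0.19 in tamoxifen and -1.32 ± 0.19 in ethanol in double-KO cells. They were -1.74 ± 0.19 in tamoxifen and -1.40 ± 0.19 in ethanol in Kmt2c-KO GRHL2-ERT cells, and -1.43 ± 0.19 without GRHL2-ERT, where adjusted p = 2.94e-06. Adjusted p in the other 4 combinations was 4.11e-05 at most. The size of this drop was not shown to differ between lines (difference 0.07 ± 0.27 in ethanol, adjusted p = 0.923, 95% interval -0.49 to 0.64).

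**Figure D1:**
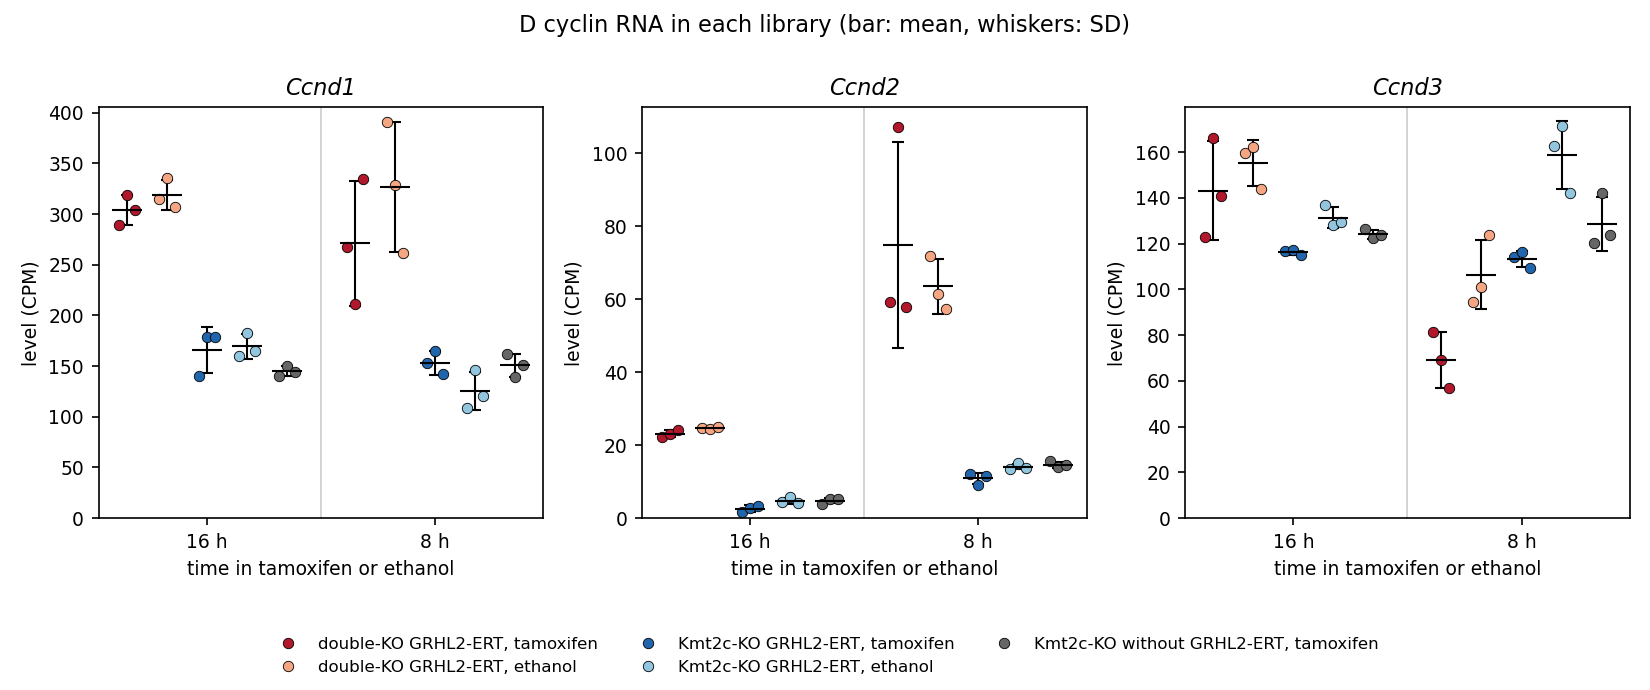
CPM of Ccnd1, Ccnd2 and Ccnd3 in each library (points), with the mean (bar) and SD (whisker) of each group of 3, double-KO groups left of Kmt2c-KO groups and 16 h left of 8 h. Ccnd1 and Ccnd2 were higher in each double-KO group, Ccnd2 was lower at 16 h, and the double-KO groups of Ccnd3 had the highest means of the groups at 16 h and the lowest of the groups at 8 h.

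Ccnd3, which encodes cyclin D3, had a line difference that changed with time. At 16 h Ccnd3 was at 123, 166 and 141 CPM with tamoxifen and 159.8, 162 and 144 CPM with ethanol in double-KO libraries, against 117, 117 and 115 CPM with tamoxifen and 137, 128 and 129 CPM with ethanol in Kmt2c-KO GRHL2-ERT libraries. At 8 h Ccnd3 was at 81.2, 69.1 and 56.8 CPM with tamoxifen and 94.7, 101 and 124 CPM with ethanol in double-KO libraries, against 114, 116 and 109 CPM with tamoxifen and 162, 171 and 142 CPM with ethanol in Kmt2c-KO GRHL2-ERT libraries. Without GRHL2-ERT, Ccnd3 was at 126, 122 and 124 CPM at 16 h and 120.2, 142 and 124 CPM at 8 h, both with tamoxifen. Within a treatment the GRHL2-ERT lines did not overlap at either time, with double-KO libraries lower at 8 h and higher at 16 h. At 8 h Ccnd3 fell in double-KO against Kmt2c-KO cells, with log2 fold changes of -0.72 ± 0.12 in tamoxifen and -0.58 ± 0.12 in ethanol (adjusted p = 1.65e-05 and 0.000242), or -0.92 and -0.89 after median-of-ratios scaling. At 16 h the difference was 0.29 ± 0.12 in tamoxifen (adjusted p = 0.0442), which became -0.10 after median-of-ratios scaling (adjusted p = 0.578) and lost its call without any of 5 of its 6 libraries (adjusted p = 0.0795 to 0.259), and 0.24 ± 0.12 in ethanol (adjusted p = 0.0976), which became -0.13 (adjusted p = 0.461). Ccnd3 rose at 16 h against 8 h in double-KO cells, by 1.05 ± 0.12 in tamoxifen and 0.55 ± 0.12 in ethanol (adjusted p = 9.87e-07 and 0.00192). In Kmt2c-KO GRHL2-ERT cells the same differences were 0.04 ± 0.12 and -0.27 ± 0.12 (adjusted p = 0.83 and 0.0674). The ethanol difference was called in 4 alternatives: its libraries alone (adjusted p = 0.0348), array weights (0.0227), the fit lacking both libraries that stood apart (-0.34, adjusted p = 0.0207) and that lacking just ethanol replicate 3 at 8 h (adjusted p = 0.0375). A test of the difference between the lines, added after the data were seen, gave 1.01 ± 0.17 in tamoxifen (adjusted p = 0.000228, where 9.4% of all genes were called) and 0.81 ± 0.17 in ethanol (adjusted p = 0.00341, 4.84% of genes called). Median-of-ratios scaling kept both calls (0.82 and 0.76, adjusted p = 0.00583 and 0.0156). Leaving out the 2 libraries that stood apart gave 1.02 and 0.89 (adjusted p = 8.74e-05 and 0.000578). Ccnd3 was the 1 member called in either of these tests.

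As a sum by CPM, D-cyclin tags were more abundant in double-KO cells and were distributed differently. Median-of-ratios scaling made the double-KO excess of Ccnd1 and Ccnd2 smaller above, and the sum was not computed after it. The sum of the 3 genes was 470.2 ± 37.2 CPM in tamoxifen and 499 ± 23.2 CPM in ethanol in double-KO libraries at 16 h, against 285 ± 23.0 CPM in tamoxifen and 306 ± 9.66 CPM in ethanol in Kmt2c-KO GRHL2-ERT libraries and 274 ± 3.51 CPM without GRHL2-ERT (SD, n = 3 each). At 8 h it was 415 ± 31.3 CPM in tamoxifen and 497 ± 57.3 CPM in ethanol in double-KO libraries, against 277 ± 13.6 CPM in tamoxifen and 298 ± 29.96 CPM in ethanol in Kmt2c-KO GRHL2-ERT libraries and 294 ± 4.09 CPM without GRHL2-ERT. Ccnd1 contributed most of the sum in the double-KO groups. Ccnd3 made up 31.1 ± 0.879% of it in double-KO ethanol libraries at 16 h and 43.0 ± 2.54% in Kmt2c-KO ones, and at 8 h 21.8 ± 5.57% and 53.3 ± 3.19% in the same lines. Ccnd2 made up 4.96 ± 0.304% in double-KO and 1.56 ± 0.214% in Kmt2c-KO ethanol libraries at 16 h, and 12.8 ± 0.212% and 4.75 ± 0.233% at 8 h. At 8 h the leading D cyclin of ethanol-treated Kmt2c-KO cells was thus Ccnd3, at 159 CPM beside 125 CPM of Ccnd1. These shares come from the same CPM as the tests above and are given without one.

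**Figure D2:**
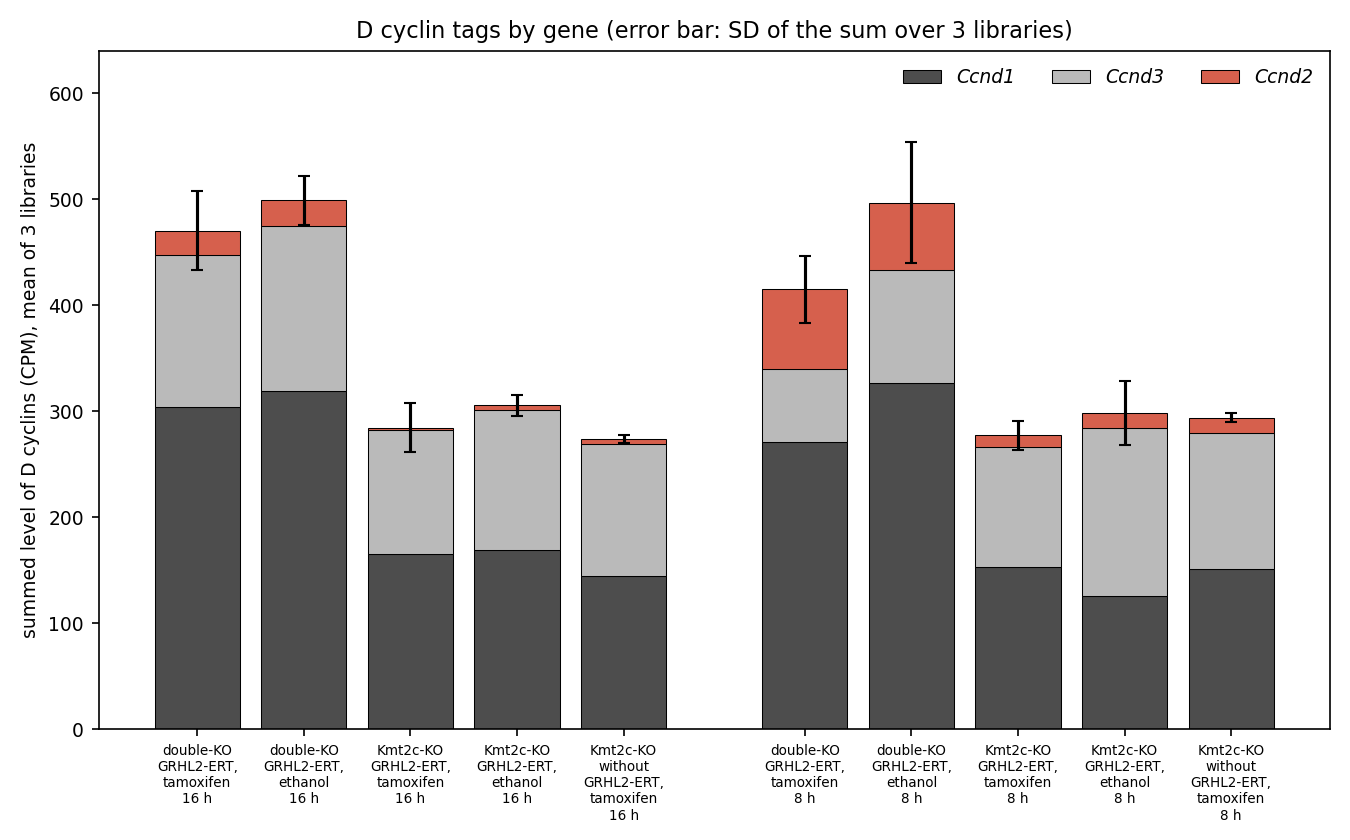
Mean CPM of Ccnd1, Ccnd2 and Ccnd3 stacked in each of the 10 groups, double-KO groups left of Kmt2c-KO groups and 16 h left of 8 h. The stacks of the 4 double-KO groups reach 415 to 499 CPM and those of the 6 Kmt2c-KO groups 274 to 306 CPM.

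The E-type cyclins were called higher in double-KO cells at 16 h, and not after median-of-ratios scaling. For Ccne1, which encodes cyclin E1, the double-KO libraries were the highest of those at 16 h. At 16 h Ccne1 was at 101, 104 and 114 CPM with tamoxifen and 105, 104 and 107 CPM with ethanol in double-KO libraries, against 63.1, 65.1 and 67.4 CPM with tamoxifen and 67.7, 65.2 and 68.1 CPM with ethanol in Kmt2c-KO GRHL2-ERT libraries. At 8 h Ccne1 was at 98.1, 47.0 and 87.5 CPM with tamoxifen and 110.1, 87.2 and 98.9 CPM with ethanol in double-KO libraries, against 77.3, 74.5 and 70.2 CPM with tamoxifen and 62.3, 84.7 and 87.4 CPM with ethanol in Kmt2c-KO GRHL2-ERT libraries. Without GRHL2-ERT, Ccne1 was at 74.3, 69.9 and 74.3 CPM at 16 h and 93.1, 99.5 and 84.4 CPM at 8 h, both with tamoxifen. The GRHL2-ERT lines were separate at 16 h and overlapped at 8 h, where the double-KO library that stood apart had the lowest value of all 30. Ccne1 rose at 16 h in double-KO against Kmt2c-KO cells, by 0.69 ± 0.16 in tamoxifen and 0.64 ± 0.16 in ethanol (adjusted p = 0.000839 and 0.00177). After median-of-ratios scaling these were 0.31 and 0.28, and neither was called (adjusted p = 0.0908 and 0.129). At 16 h against 8 h Ccne1 rose in double-KO tamoxifen cells, by 0.51 ± 0.16 (adjusted p = 0.0168), and this was 0.19 (adjusted p = 0.242) without the 2 libraries that stood apart and 0.46 without tamoxifen replicate 3 at 16 h (adjusted p = 0.0675). Without double-KO tamoxifen replicate 2 the line difference at 8 h in tamoxifen, otherwise -0.00063 ± 0.16 (adjusted p = 0.998), was 0.32 (adjusted p = 0.0233). In ethanol at 8 h the line difference was 0.34 ± 0.16 (adjusted p = 0.081), and 0.43 without the 2 libraries that stood apart (adjusted p = 0.00181).

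For Ccne2, which encodes cyclin E2, cells without GRHL2-ERT at 16 h had the lowest mean of the 10 groups. At 16 h Ccne2 was at 89.8, 82.1 and 80.9 CPM with tamoxifen and 87.9, 84.2 and 84.7 CPM with ethanol in double-KO libraries, against 55.9, 65.0 and 60.7 CPM with tamoxifen and 65.4, 62.5 and 66.6 CPM with ethanol in Kmt2c-KO GRHL2-ERT libraries. At 8 h Ccne2 was at 77.6, 113 and 70.1 CPM with tamoxifen and 68.4, 60.4 and 86.8 CPM with ethanol in double-KO libraries, against 44.8, 49.0 and 55.1 CPM with tamoxifen and 66.0, 43.5 and 58.5 CPM with ethanol in Kmt2c-KO GRHL2-ERT libraries. Without GRHL2-ERT, Ccne2 was at 36.7, 44.3 and 49.2 CPM at 16 h and 63.6, 66.2 and 64.0 CPM at 8 h, both with tamoxifen. The GRHL2-ERT lines were separate at 16 h with each treatment and at 8 h with tamoxifen. Ccne2 rose in double-KO against Kmt2c-KO cells in tamoxifen at 16 h and at 8 h, by 0.47 ± 0.15 and 0.77 ± 0.15 (adjusted p = 0.0112 and 0.000173), and in ethanol at 16 h, by 0.40 ± 0.15 (adjusted p = 0.0323). The ethanol call was lost after median-of-ratios scaling (0.03, adjusted p = 0.903) and whichever of its 6 libraries was left out. The tamoxifen call at 16 h was lost without Kmt2c-KO tamoxifen replicate 1 (adjusted p = 0.0523). With scaling, the tamoxifen differences were 0.09 at 16 h and 0.57 at 8 h (adjusted p = 0.709 and 0.00792). In ethanol at 8 h the line difference was 0.36 ± 0.15 (adjusted p = 0.0521), and it was called without the 2 libraries that stood apart (0.40, adjusted p = 0.0193). Ccne2 fell at 16 h against 8 h in cells without GRHL2-ERT (-0.57 ± 0.15, adjusted p = 0.00457, and 0.0647 after scaling).

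**Figure D3:**
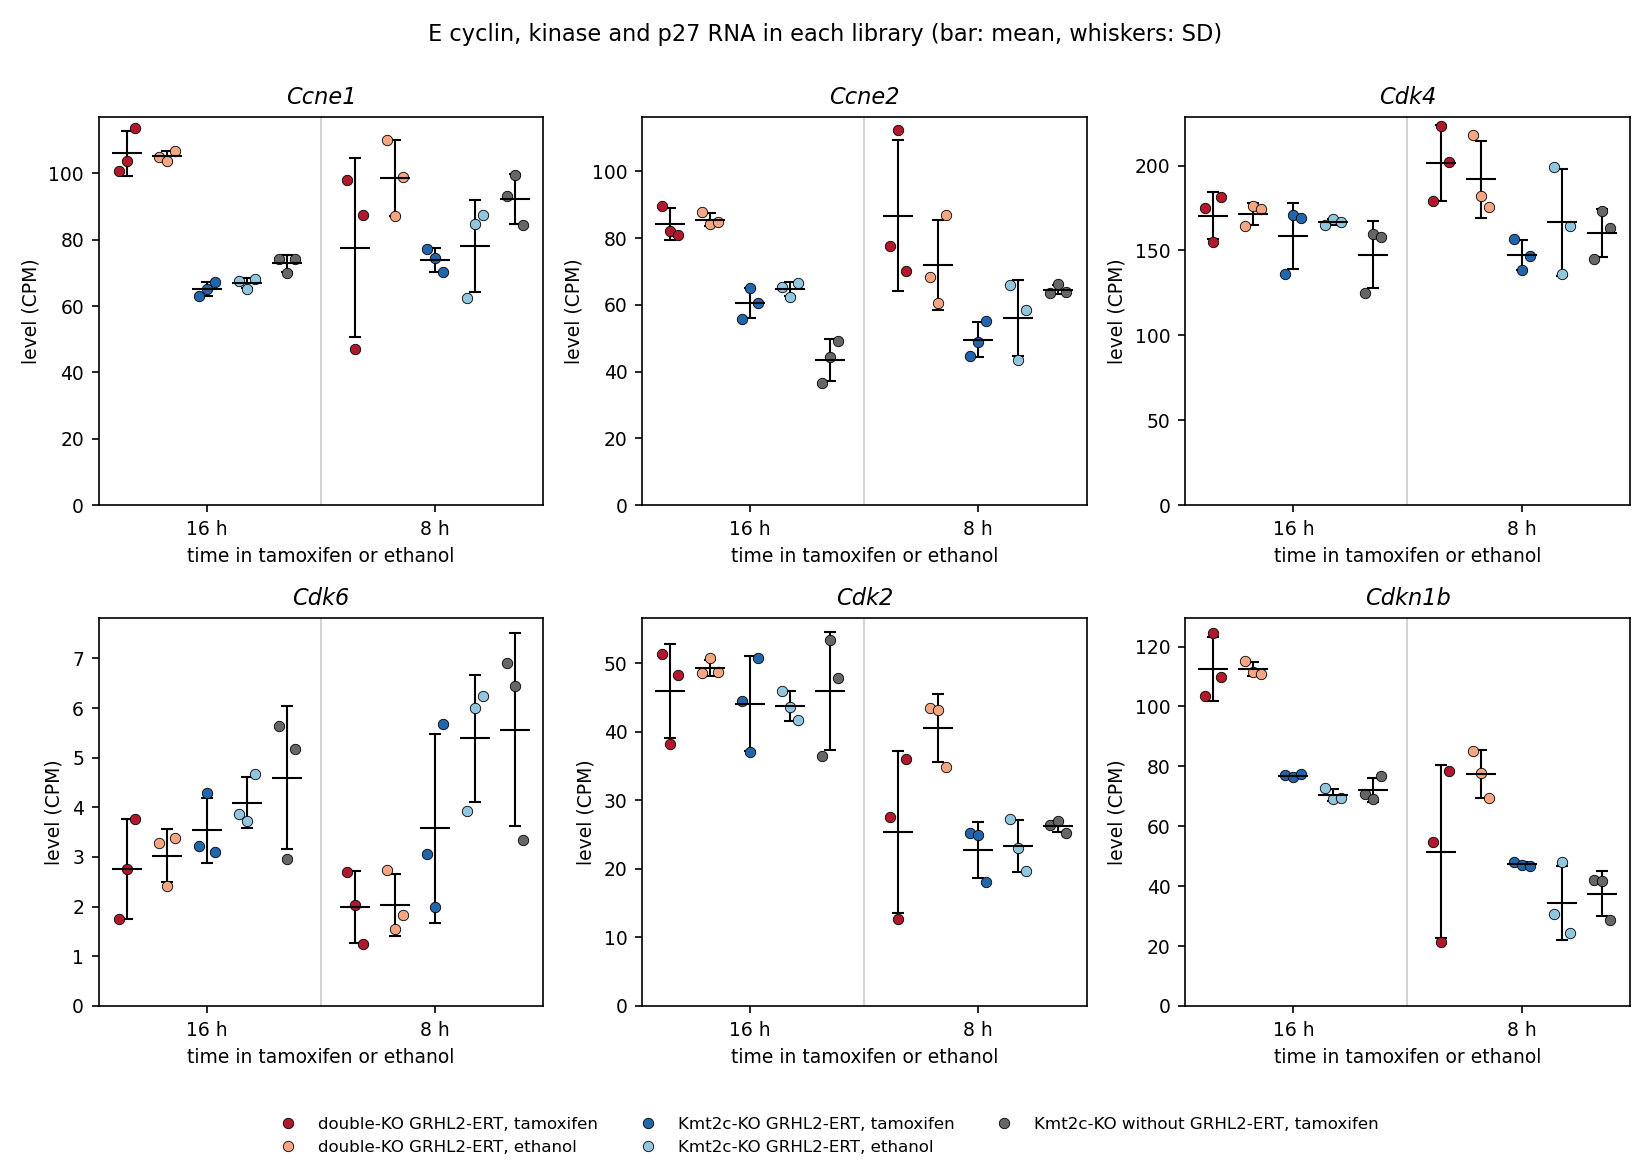
CPM of Ccne1, Ccne2, Cdk4, Cdk6, Cdk2 and Cdkn1b in each library (points), with the mean (bar) and SD (whisker) of each group of 3, double-KO groups left of Kmt2c-KO groups and 16 h left of 8 h. Cdk2 and Cdkn1b were higher at 16 h in Kmt2c-KO groups, while Cdk4 groups overlapped with their neighbours in level and Cdk6 stayed under 7 CPM.

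Among the kinases, Cdk4 was called in 1 of the 4 line comparisons. At 16 h Cdk4 was at 175, 155 and 181 CPM with tamoxifen and 164, 176 and 174 CPM with ethanol in double-KO libraries, against 136, 171 and 169 CPM with tamoxifen and 165, 168 and 167 CPM with ethanol in Kmt2c-KO GRHL2-ERT libraries. At 8 h Cdk4 was at 179, 223 and 202 CPM with tamoxifen and 218, 182 and 176 CPM with ethanol in double-KO libraries, against 156, 139 and 147 CPM with tamoxifen and 199, 136 and 164 CPM with ethanol in Kmt2c-KO GRHL2-ERT libraries. Without GRHL2-ERT, Cdk4 was at 125, 159.7 and 158 CPM at 16 h and 145, 173 and 163 CPM at 8 h, both with tamoxifen. Each of the 10 groups overlapped with its neighbour in the order of levels, although the GRHL2-ERT lines did not overlap in tamoxifen at 8 h. Cdk4 rose in double-KO against Kmt2c-KO cells in tamoxifen at 8 h alone, by 0.45 ± 0.13 (adjusted p = 0.00502), and was not called after median-of-ratios scaling (0.24, adjusted p = 0.129). In ethanol at 16 h the difference was 0.04 ± 0.13 (adjusted p = 0.81), and scaling turned it to -0.33 (adjusted p = 0.0377).

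Cdk6, the other partner of the D cyclins, was low throughout. At 16 h Cdk6 was at 1.75, 2.76 and 3.76 CPM with tamoxifen and 3.29, 2.41 and 3.37 CPM with ethanol in double-KO libraries, against 3.23, 4.29 and 3.09 CPM with tamoxifen and 3.87, 3.73 and 4.67 CPM with ethanol in Kmt2c-KO GRHL2-ERT libraries. At 8 h Cdk6 was at 2.69, 2.03 and 1.25 CPM with tamoxifen and 2.74, 1.54 and 1.82 CPM with ethanol in double-KO libraries, against 3.06, 1.99 and 5.68 CPM with tamoxifen and 3.93, 6.00 and 6.24 CPM with ethanol in Kmt2c-KO GRHL2-ERT libraries. Without GRHL2-ERT, Cdk6 was at 5.65, 2.95 and 5.18 CPM at 16 h and 6.91, 6.44 and 3.34 CPM at 8 h, both with tamoxifen. The lowest of these values lies above the floor of 3 reads, and the spread within groups was wide. Cdk6 fell in double-KO against Kmt2c-KO cells in ethanol at 8 h (log2 fold change -1.07 ± 0.29, adjusted p = 0.00304), and did so after median-of-ratios scaling (-1.29, adjusted p = 0.000519). The other 3 line differences were between -0.56 and -0.30 and were not called.

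Cdk2, the partner of the E cyclins, had a higher mean at 16 h than at 8 h in all 5 line and treatment combinations, and was called in 4. At 16 h Cdk2 was at 51.3, 38.3 and 48.3 CPM with tamoxifen and 48.6, 50.8 and 48.7 CPM with ethanol in double-KO libraries, against 44.5, 37.1 and 50.8 CPM with tamoxifen and 46.0, 43.6 and 41.8 CPM with ethanol in Kmt2c-KO GRHL2-ERT libraries. At 8 h Cdk2 was at 27.6, 12.6 and 36.0 CPM with tamoxifen and 43.6, 43.3 and 34.9 CPM with ethanol in double-KO libraries, against 25.3, 24.9 and 18.1 CPM with tamoxifen and 27.2, 23.0 and 19.7 CPM with ethanol in Kmt2c-KO GRHL2-ERT libraries. Without GRHL2-ERT, Cdk2 was at 36.6, 53.5 and 47.8 CPM at 16 h and 26.4, 26.9 and 25.2 CPM at 8 h, both with tamoxifen. At 16 h each group overlapped at least 1 other, and at 8 h the ethanol-treated double-KO group was already near them. Cdk2 rose at 16 h against 8 h in double-KO tamoxifen cells, by 0.94 ± 0.22 (adjusted p = 0.00302). In Kmt2c-KO GRHL2-ERT cells it rose by 0.93 ± 0.22 in tamoxifen and 0.89 ± 0.22 in ethanol (adjusted p = 0.00193 and 0.00219), and by 0.77 ± 0.22 without GRHL2-ERT (adjusted p = 0.00882, and 0.0509 without replicate 2 of that group at 16 h). In ethanol-treated double-KO cells the groups did not overlap and the difference was 0.28 ± 0.22 (adjusted p = 0.381, 95% interval -0.18 to 0.74), and it was not shown to differ from that of ethanol-treated Kmt2c-KO cells (-0.61 ± 0.32, adjusted p = 0.311). Without the 2 libraries that stood apart the double-KO tamoxifen difference was 0.52 (adjusted p = 0.0281). Between lines, Cdk2 rose in double-KO against Kmt2c-KO cells in ethanol at 8 h, by 0.78 ± 0.22 (adjusted p = 0.0057), or 0.47 after median-of-ratios scaling (adjusted p = 0.0583). In tamoxifen at 8 h the line difference was 0.05 ± 0.22 (adjusted p = 0.875), and it was 0.47 without double-KO tamoxifen replicate 2 (adjusted p = 0.0229).

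Cdkn1b, which encodes the inhibitor p27, also had a higher mean at 16 h in all 5 combinations and was called in the same 4, and exceeded its Kmt2c-KO level in ethanol-treated double-KO cells. At 16 h Cdkn1b was at 104, 124 and 109.8 CPM with tamoxifen and 115, 112 and 111 CPM with ethanol in double-KO libraries, against 77.2, 76.3 and 77.3 CPM with tamoxifen and 72.8, 69.2 and 69.4 CPM with ethanol in Kmt2c-KO GRHL2-ERT libraries. At 8 h Cdkn1b was at 54.7, 21.3 and 78.6 CPM with tamoxifen and 85.1, 77.8 and 69.3 CPM with ethanol in double-KO libraries, against 48.2, 47.2 and 46.7 CPM with tamoxifen and 30.6, 48.1 and 24.4 CPM with ethanol in Kmt2c-KO GRHL2-ERT libraries. Without GRHL2-ERT, Cdkn1b was at 70.6, 69.1 and 76.7 CPM at 16 h and 42.0, 41.8 and 28.7 CPM at 8 h, both with tamoxifen. Replicate 2 of the double-KO tamoxifen libraries at 8 h again lay far below its group, at the lowest value of all 30. Cdkn1b rose at 16 h against 8 h by 1.29 ± 0.27 in double-KO tamoxifen cells (adjusted p = 0.00146), by 0.69 ± 0.27 and 1.07 ± 0.27 in Kmt2c-KO GRHL2-ERT cells in tamoxifen and ethanol (adjusted p = 0.0496 and 0.00287), and by 0.95 ± 0.27 without GRHL2-ERT (adjusted p = 0.0093). Without the 2 libraries that stood apart these were 0.77, 0.69, 0.86 and 0.95 (adjusted p = 0.000988, 0.000137, 3.25e-05 and 1.97e-06). The Kmt2c-KO tamoxifen call was lost whichever of its 6 libraries was left out, and the call without GRHL2-ERT was lost without replicate 3 of that group at 8 h (adjusted p = 0.0565). In ethanol-treated double-KO cells the groups did not overlap and the difference was 0.54 ± 0.27 (adjusted p = 0.161), and it was called when the 2 libraries that stood apart, which belong to neither group, were left out (adjusted p = 0.00332). In ethanol Cdkn1b rose in double-KO against Kmt2c-KO cells by 0.67 ± 0.27 at 16 h and 1.20 ± 0.27 at 8 h (adjusted p = 0.0455 and 0.00092). After median-of-ratios scaling these were 0.30 and 0.89 (adjusted p = 0.341 and 0.00479), and the 16 h call was lost whichever of its 6 libraries was left out. In tamoxifen the line difference was 0.54 ± 0.27 at 16 h (adjusted p = 0.103) and -0.06 ± 0.27 at 8 h (adjusted p = 0.871), and both were called without the 2 libraries that stood apart (0.54 and 0.46, adjusted p = 0.00113 and 0.0142). After scaling they were 0.15 and -0.26 (adjusted p = 0.642 and 0.406).

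Counted over the time comparisons, 5 members were called at 16 h against 8 h in double-KO tamoxifen cells (35.7% of all genes called) and 2 in double-KO ethanol cells (21.3%). In Kmt2c-KO GRHL2-ERT cells 3 were called in tamoxifen (38.3%) and 4 in ethanol (45%), and 4 were called without GRHL2-ERT (36.6%). These shares of members were near those of all genes, or above them in double-KO tamoxifen cells. When the 6 double-KO tamoxifen libraries were fitted alone, 0 of the 5 members were called (for Ccnd2 adjusted p = 0.118). The share of all genes called in that fit is not given here. Ccnd2 was the 1 member called in all 5 combinations, and Cdk2 and Cdkn1b were called upward in the same 4. The median of all genes was displaced by -0.15, -0.12 and -0.15 in the 3 Kmt2c-KO combinations, in the order tamoxifen, ethanol and without GRHL2-ERT. Rn45s was at 18512 to 26050 CPM in the 16 h libraries and at 30998 to 74014.5 CPM in the 8 h libraries. The part of a batch in these time differences was not tested.

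**Figure D4:**
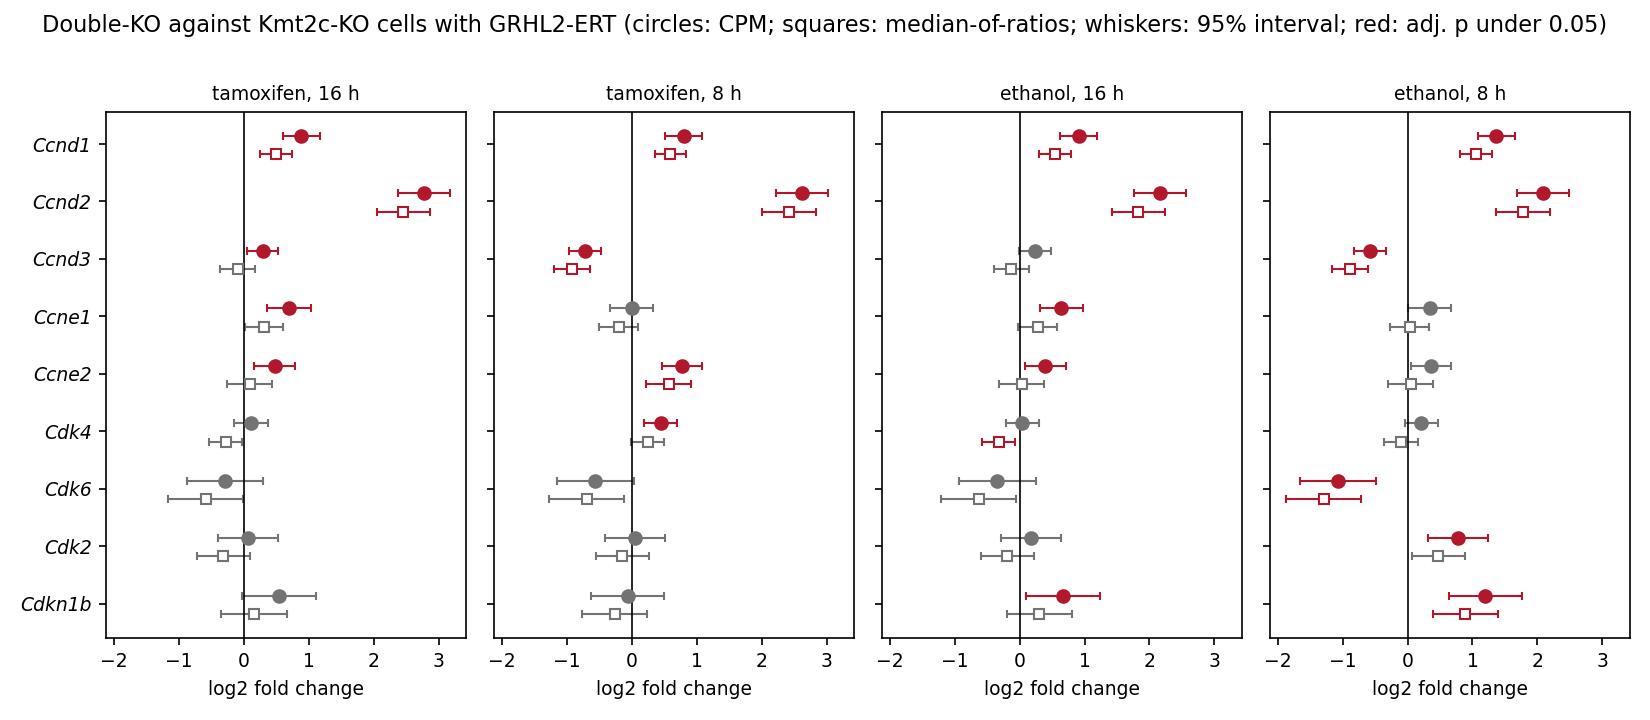
Log2 fold change of each of the 9 genes in double-KO against Kmt2c-KO GRHL2-ERT cells, with 95% intervals, in tamoxifen and in ethanol, 16 h left of 8 h. Circles show CPM and squares show median-of-ratios scaling. Ccnd2 and Ccnd1 lay above 0 in all 4 comparisons. By CPM, Ccnd3 lay below 0 at 8 h and above 0 at 16 h. Median-of-ratios scaling turned its 16 h differences to -0.10 in tamoxifen and -0.13 in ethanol.

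Between tamoxifen and ethanol, 1 of the 9 genes was called, at 8 h. At 16 h, limma called 0 members between tamoxifen and ethanol in the double-KO line, where 0.0403% of all genes were called. At an unadjusted p under 0.05 were 0 members and 519 of the 12414 tested genes. It called 0 in Kmt2c-KO GRHL2-ERT cells at 16 h, with 0.298% of all genes called. There 1 member and 597 of the tested genes had an unadjusted p under 0.05. At 8 h 1 member was called in double-KO cells, where 0.0967% of all genes were called, and 1 in Kmt2c-KO GRHL2-ERT cells, where 4.95% were. Both times it was Ccnd3, and it fell. In double-KO cells at 8 h Ccnd3 averaged 69.0 ± 12.2 CPM in tamoxifen and 106 ± 15.2 CPM in ethanol (adjusted p = 0.0197), and the groups did not overlap. This call was lost after median-of-ratios scaling (-0.54, adjusted p = 0.102), when the libraries of the comparison were fitted alone (adjusted p = 0.787) and with array weights (adjusted p = 0.337). It was also lost without replicate 2 or replicate 3 of the ethanol group (adjusted p = 0.0605 and 0.0597), and it was kept without the 2 libraries that stood apart (-0.63, adjusted p = 0.0184). In Kmt2c-KO GRHL2-ERT cells at 8 h Ccnd3 averaged 113 ± 3.44 CPM in tamoxifen and 159 ± 15.0 CPM in ethanol, a log2 difference of -0.48 ± 0.12 (adjusted p = 0.0143). That call held after median-of-ratios scaling (-0.50, adjusted p = 0.0208) and was lost without replicate 1 or 2 of the ethanol group or replicate 3 of the tamoxifen group (adjusted p = 0.0584, 0.0662 and 0.0581).

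The Kmt2c-KO tamoxifen libraries at 8 h also differed in marker sums. Naive markers summed to 2601 to 2689 CPM in tamoxifen and 3248 to 3499 CPM in ethanol, and trophoblast markers to 282 to 300.5 CPM in tamoxifen and 203 to 231 CPM in ethanol. Sox2, Zfp42 and Klf4 were called lower and Krt18 and Krt8 higher. After median-of-ratios scaling 3 of the 12 naive markers were called lower and 0 higher. Of the 5 trophoblast markers, 2 were called higher and 0 lower. In double-KO cells at 8 h trophoblast markers summed to 252 to 299.997 CPM in tamoxifen and 219 to 248 CPM in ethanol, primitive endoderm markers to 20.1 to 24.6 CPM and 27.1 to 34.5 CPM, and neuroectoderm markers to 50.6 to 54.8 CPM and 63.3 to 84.7 CPM, again without overlap. Most of that neuroectoderm sum was Sox1, which averaged 41.4 CPM in tamoxifen and 60.1 CPM in ethanol and was not called (adjusted p = 0.187). Zic1 went the other way, at 2.67 and 1.73 CPM, and was not called either. The part of these markers in the Ccnd3 results was not tested.

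The other 8 members were not called at 8 h in either line. In double-KO cells the tamoxifen difference of Cdk2 was -0.76 ± 0.22 (adjusted p = 0.142, 95% interval -1.22 to -0.30) and that of Cdkn1b -0.76 ± 0.27 (adjusted p = 0.176, 95% interval -1.32 to -0.19). Replicate 2 of the tamoxifen group was the lowest library for both, and without the 2 libraries that stood apart they were -0.35 and -0.23 (adjusted p = 0.888 and 1). Without replicate 3 of the same tamoxifen group, which leaves the deviating library with 1 other, 5 members were called, all lower in tamoxifen: Ccnd1 (-0.44), Ccnd3, Ccne1 (-0.53), Cdk2 (-1.06) and Cdkn1b (-1.15). The share of all genes called in that fit is not given here, so the count is not read as a result about the members. With all libraries, 2520 of the 12414 tested genes and 4 of the members had an unadjusted p under 0.05 in this comparison. Ccnd1 had a tamoxifen difference of -0.27 ± 0.14 in double-KO and 0.29 ± 0.14 in Kmt2c-KO GRHL2-ERT cells (adjusted p = 0.26 and 0.261). At 16 h the double-KO differences of the 9 members ran from -0.13 to 0.01. Ccnd2 differed most in Kmt2c-KO GRHL2-ERT cells at 16 h, at -0.70 ± 0.19 (adjusted p = 0.178), with groups that did not overlap; without the 2 libraries that stood apart, which are of the other time, it was called (adjusted p = 0.0359).

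The difference between the lines in the tamoxifen response was tested directly. At 16 h limma called 0 members and 0% of all genes, with 315 of all genes and 1 of the members at an unadjusted p under 0.05. At 8 h it called 0 members and 1.43% of all genes, with 3090 of all genes and 3 of the members at an unadjusted p under 0.05. The largest member difference at 8 h was that of Cdkn1b, -1.26 ± 0.39 (adjusted p = 0.0786, 95% interval -2.06 to -0.47), which was -0.53 (adjusted p = 0.29) without the 2 libraries that stood apart. For Ccnd3 the difference of responses was -0.14 ± 0.17 (adjusted p = 0.608, 95% interval -0.49 to 0.20). The tamoxifen responses at 16 h against those at 8 h gave 0 called members in double-KO cells (0% of all genes called, with 714 genes and 2 members at an unadjusted p under 0.05). They gave 0 in Kmt2c-KO GRHL2-ERT cells (0.0644% of all genes called, with 789 genes and 0 members at an unadjusted p under 0.05).

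**Figure D5:**
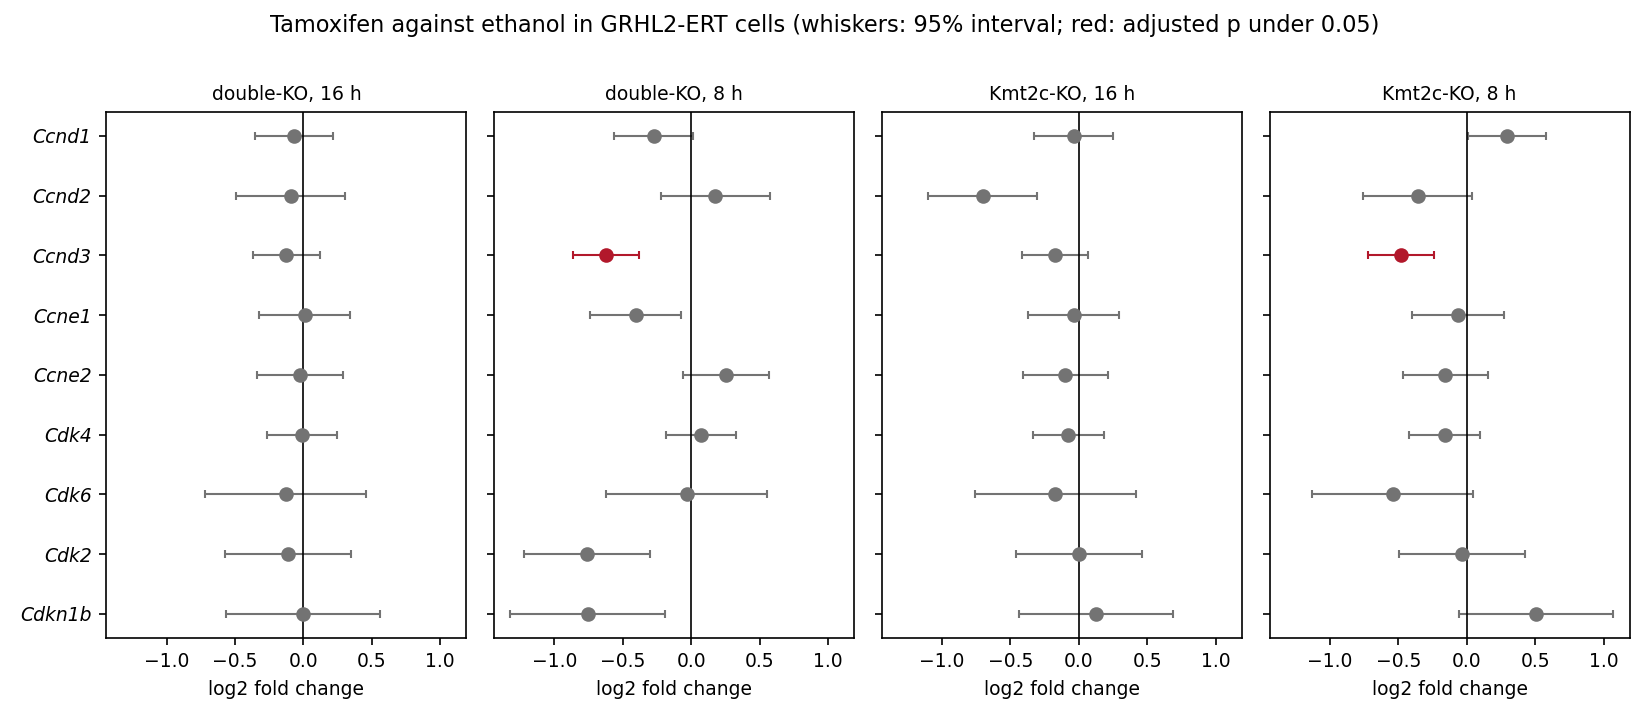
Log2 fold change of each of the 9 genes in tamoxifen against ethanol (points, with 95% intervals), in double-KO cells left of Kmt2c-KO GRHL2-ERT cells and at 16 h left of 8 h within a line. Ccnd3 at 8 h was the called member in each line, and the widest intervals were those of the low or variable genes Cdk6 and Cdkn1b.

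Cells with and without GRHL2-ERT were compared within tamoxifen-treated Kmt2c-KO cells, a comparison of lines as well as of the transgene. Limma called 0 members at 16 h and 0 at 8 h, and 0.975% of all genes at 16 h and 4.07% at 8 h. At an unadjusted p under 0.05 were 2 members each time, with 1076 of the 12414 tested genes at 16 h and 1755 at 8 h. Ccnd2 averaged 2.61 ± 0.954 CPM with GRHL2-ERT and 4.81 ± 0.698 CPM without it at 16 h (-0.71 ± 0.19, adjusted p = 0.0798). Ccne2 averaged 60.5 ± 4.57 CPM with and 43.4 ± 6.30 CPM without it at 16 h (0.48 ± 0.15, adjusted p = 0.173). Neither pair of groups overlapped, and both were called without the 2 libraries that stood apart, which belong to neither group (adjusted p = 0.0144 and 0.0387). Ccnd3 averaged 113 ± 3.44 CPM with and 129 ± 11.7 CPM without GRHL2-ERT at 8 h (-0.18 ± 0.12, adjusted p = 0.586, 95% interval -0.42 to 0.07). The tamoxifen libraries of this comparison are those of the Kmt2c-KO tamoxifen comparison above.

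The rest of the pathway was read from lists of other genes, counted by the same calls. Of 30 other G1/S genes, 29 were in the table (not Ccna1). Between the lines in ethanol 12 rose and 2 fell at 16 h in double-KO against Kmt2c-KO cells (median 0.39, against 0.35 over all genes), and 14 rose and 3 fell at 8 h (median 0.60, against 0.31). Of all tested genes 40% rose and 9.96% fell at 16 h, and 37.6% rose and 11.9% fell at 8 h. The counts of the list at 16 h were near these shares. After median-of-ratios scaling 7 genes of the list rose and 5 fell at 16 h, and 6 rose and 5 fell at 8 h. The risers included other inhibitors of the same kinases. Cdkn1a, which encodes p21, averaged 469 ± 20.5 CPM in double-KO and 109 ± 4.33 CPM in Kmt2c-KO cells at 16 h (2.10 ± 0.11, adjusted p = 8.38e-15), and 504 ± 79.4 CPM and 195 ± 5.96 CPM at 8 h (1.35 ± 0.11, adjusted p = 9.58e-11). Cdkn2c, which encodes the CDK4 and CDK6 inhibitor p18, rose by 1.48 ± 0.25 at 16 h and 1.65 ± 0.25 at 8 h (adjusted p = 1.55e-05 and 4.15e-06). Among those that fell at both times were 2 genes: Tfdp2, a dimer partner of E2F factors, at -0.88 ± 0.11 and -0.87 ± 0.11, and Mnat1, a subunit of the kinase that activates CDKs, at -0.54 ± 0.09 and -0.73 ± 0.09 at 16 h and 8 h. Adjusted p was 2.15e-05 at most for these, and the calls of Cdkn1a, Cdkn2c, Tfdp2 and Mnat1 kept their direction after median-of-ratios scaling. Tfdp2 was also the 1 gene of this list called between tamoxifen and ethanol, in Kmt2c-KO GRHL2-ERT cells at 8 h (-0.52 ± 0.11, adjusted p = 0.00572).

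With time, the G1/S list moved in both directions. At 16 h against 8 h, 14 rose and 4 fell in double-KO cells in tamoxifen, where 18.9% of all genes rose and 16.9% fell, and 3 rose and 3 fell in ethanol (8.72% and 12.5% of all genes). In Kmt2c-KO GRHL2-ERT cells 5 rose and 8 fell in tamoxifen (11.9% and 26.3% of all genes) and 6 rose and 8 fell in ethanol (17.5% and 27.5%), and 2 rose and 9 fell without GRHL2-ERT (10.9% and 25.7%). In the 3 Kmt2c-KO combinations fallers thus outnumbered risers over all genes as well. After median-of-ratios scaling the counts in the same order were 14 and 4, 4 and 1, 8 and 6, 12 and 6, and 5 and 7, so the split between risers and fallers depended on the scaling. Cdk7, the catalytic subunit of the CDK-activating kinase, rose by 0.84 ± 0.20 in ethanol-treated double-KO cells and by 1.16 ± 0.20 in ethanol-treated Kmt2c-KO cells (adjusted p = 0.00359 and 3.86e-05). Ccna2, which encodes cyclin A2, a partner of CDK2 in S phase, rose by 0.99 ± 0.19 in tamoxifen-treated double-KO cells and 1.02 ± 0.19 in ethanol-treated Kmt2c-KO cells (adjusted p = 0.000588 and 0.000121). Cdkn1c, which encodes p57, fell in double-KO cells, with -0.95 ± 0.17 in tamoxifen and -1.18 ± 0.17 in ethanol (adjusted p = 0.000214 and 2.15e-05). Cdkn1a had a difference of -0.09 ± 0.11 in ethanol-treated double-KO cells (adjusted p = 0.585) and fell in ethanol-treated Kmt2c-KO GRHL2-ERT cells (-0.84 ± 0.11, adjusted p = 1.62e-06). In ethanol-treated Kmt2c-KO cells the p21 and p27 transcripts thus moved in opposite directions.

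Replication and mitotic genes, which act after the steps above, were counted in the same way, and here the direction between lines hung on the scaling. Before scaling, 40% of all tested genes rose and 9.96% fell in this comparison at 16 h, and 37.6% and 11.9% at 8 h. Of 30 replication genes, 3 rose and 5 fell at 16 h (median 0.05) and 10 rose and 6 fell at 8 h (median 0.09) in ethanol-treated double-KO against Kmt2c-KO cells; after median-of-ratios scaling 1 rose and 13 fell at 16 h, and 3 rose and 11 fell at 8 h. Tk1, thymidine kinase, rose by 0.72 ± 0.11 at 16 h and 0.64 ± 0.11 at 8 h, and did so after scaling too (0.35 and 0.33). Of 18 mitotic genes, 7 rose at 16 h and 11 at 8 h and 0 fell at either time, whereas after scaling 2 rose and 5 fell at 16 h and 4 rose and 4 fell at 8 h. The share of mitotic genes that rose at 16 h before scaling was near that of all genes. Mki67, the proliferation marker Ki-67, was at 0.81 ± 0.13 at 16 h (adjusted p = 7.57e-06), or 0.44 after scaling (adjusted p = 0.0184). Of 18 growth signal genes 14 were in the table (not Egr1, Fos, Fosl1 or Foxo3), and 4 rose and 2 fell at 16 h and 8 rose and 3 fell at 8 h, or 3 and 3 and 7 and 4 after scaling. Id1, a target of BMP signalling, rose by 2.51 ± 0.27 and 3.37 ± 0.27, and Etv5, a target of FGF and ERK signalling, fell, at -0.51 ± 0.13 and -0.74 ± 0.13, at 16 h and 8 h. Etv5 was also called lower in tamoxifen against ethanol in Kmt2c-KO GRHL2-ERT cells at 8 h (-0.59 ± 0.13, adjusted p = 0.00449).

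The genes whose levels most resembled each member were found over the 10 group means, which share lines and times, so r is a description of these groups. Among 6961 genes, 1128 had an r over 0.9 with Ccnd2, led by Rnf220 (0.996), and 601 with Ccnd1, led by Sh3glb1 (0.996). Cdkn1b had 505, led by Camta1 (0.993), and Cdk2 had 461, led by Tfam (0.988). Cdk4 had 52, led by Ranbp1 (0.969), Cdk6 had 40, led by Cpsf4l (0.987), Ccne1 had 37, led by Larp1b (0.956), and Ccne2 had 23, led by Casp8ap2 (0.947). Ccnd3 had 5, led by Cd59a (0.952), Snrpd1 (0.942) and Naa50 (0.925). Few genes of the table thus had a course over line and time like that of Ccnd3, whereas many genes had courses like those of Ccnd2 and Ccnd1.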

How the data were processed

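RNA levels were measured in 30 libraries in 10 groups of 3. Values deposited by the authors are log2 of CPM plus an offset of 0.124871, for 12428 genes. Salmon, DESeq2 1.34.0 and mm10 appear in the submitters' processing notes without the step each served, and 3' tag libraries from a QuantSeq kit are named in the labels' protocols. Kmt2c-KO columns were assigned to the line with GRHL2-ERT or the line lacking it by which treatments the labels give to each, since the column names shorten the lines.

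CPM were computed back from the deposited log2 values, and limma 3.58.1 (R 4.3.3) was run on log2(CPM + 1), fitting a mean for each group to the 30 libraries with a variance trend and robust moderation (20 residual degrees of freedom). The 12414 genes that averaged 1 CPM or more in some group were tested. Calls used a Benjamini-Hochberg adjusted p under 0.05, two-sided, in each of 17 comparisons. The script was tested on simulated data. Sums and figures used Python 3.11.15.

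All members were described. At most 4 called genes of each other list, with groups that do not overlap, were named per comparison by adjusted p, and the 3 genes with the largest Pearson r over group means by member. Cdkn1a in ethanol-treated double-KO cells over time, which was not called, is given outside that rule. Members and lists were chosen with earlier results of these data known.

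Alternatives were pseudocounts of 0.1 and 5, no filter, median-of-ratios scaling, the libraries of 1 comparison alone, a replicate block and leaving out each library. Added after the data were seen were 4 comparisons (the lines in tamoxifen at each time, and the change with time between lines), array weights, whose estimation stopped short of its tolerance, and leaving out the 2 libraries that stood apart. Of the low values, 95.7% to 97.6% were whole reads within 0.05 reads. Replicate numbers were not used to pair the samples, since the labels do not say what a number shares. Correlations of same-numbered deviations ran from -0.577 to 0.274, which does not exclude a pairing.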

Additional observations from a re-analysis of the deposited data

Results flagged for a closer look

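The change of Ccnd3 between 16 h and 8 h differed between double-KO and Kmt2c-KO GRHL2-ERT cells in a direct test of the difference, by 1.01 on the log2 scale in tamoxifen and 0.81 in ethanol. Both tests were added after the values had been seen, and the libraries at 16 h and 8 h are shared with the line comparisons.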

How the results depend on the processing

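Of the results for single genes, 4 changed sign under some setting with a call before or after the change. Cdk4 between lines in ethanol at 16 h was -0.33 after median-of-ratios scaling (adjusted p = 0.0377), and Ccnd3 between lines in tamoxifen at 16 h was -0.10 (adjusted p = 0.578). Between lines in tamoxifen at 8 h, Ccne1 was 0.32 and Cdkn1b 0.46 without double-KO tamoxifen replicate 2, and the same without both libraries that stood apart; leaving out each library of that comparison gave -0.20 to 0.32 for Ccne1 and -0.45 to 0.46 for Cdkn1b.

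Counts of called members between tamoxifen and ethanol were 2 with array weights in Kmt2c-KO cells at 8 h, 1 with array weights and 1 without the libraries that stood apart in Kmt2c-KO cells at 16 h, and 0 in double-KO cells at 8 h with median-of-ratios scaling, with array weights and with the comparison's libraries alone. Between lines they were 3 in ethanol and 2 in tamoxifen at 16 h after median-of-ratios scaling, and 8 in tamoxifen at 8 h without the libraries that stood apart. With against without GRHL2-ERT they were 2 at 8 h with the libraries alone and 2 with array weights. At 16 h they were 1 with a pseudocount of 0.1, 1 with the libraries alone, 2 with array weights and 2 without the libraries that stood apart. At 16 h against 8 h they were 4 in double-KO ethanol cells with array weights, and 0 with the libraries alone and 2 with array weights in double-KO tamoxifen cells. The test of the change with time between lines in ethanol called 2 with the libraries alone and 5 with array weights. Why these counts moved was not tested. Fits of a comparison's libraries alone have fewer libraries. Shares of all genes called under each setting are given neither here nor for the counts below. None of these counts is therefore read as a result about the members.

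Leaving out each library in turn gave 0 to 1 called members for tamoxifen in Kmt2c-KO cells at 8 h, 0 to 5 in double-KO cells at 8 h, 0 to 3 for the difference of these responses, and 0 to 0 for each line and for the difference at 16 h. It gave 0 to 0 with against without GRHL2-ERT at either time and for the change of the response with time in either line. Between lines it gave 3 to 3 at 16 h and 6 to 8 at 8 h in ethanol, and 3 to 5 and 5 to 8 in tamoxifen. At 16 h against 8 h it gave 4 to 6 and 2 to 2 in double-KO cells in tamoxifen and ethanol, 2 to 2 and 3 to 5 in Kmt2c-KO GRHL2-ERT cells, and 3 to 4 without GRHL2-ERT. For the change with time between lines it gave 1 to 3 in tamoxifen and 1 to 1 in ethanol.

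With a replicate block, Cdkn1b lost its call between lines in ethanol at 16 h (0.67, adjusted p = 0.0575, 4 members called) and at 16 h against 8 h in Kmt2c-KO tamoxifen cells (0.69, adjusted p = 0.0623, 2 called), and no other call changed. What libraries of the same replicate number share is not given in the labels. Pseudocount 5 and no filter changed no call. Low depth limits Cdk6 and, at 16 h in Kmt2c-KO cells, Ccnd2.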
